A study of Homo sapiens with 4 samples.

Results

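The phospholipid flippases are P4-ATPases, membrane pumps that carry phospholipids from the outer to the inner leaflet of a membrane. The set described here held 9 of the 25066 genes in the expression table, namely the 8 P4-ATPases ATP8A1, ATP8B2, ATP8B4, ATP9A, ATP9B, ATP10D, ATP11A and ATP11B, and TMEM30A, the subunit most P4-ATPases need. Its members were selected on the contrast between genotypes reported below, in which ATP11A was known to be among the largest decreases, so the members' differences are a description and carry no test.

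RNA was sequenced from NUDUL1, a line of diffuse large B cell lymphoma of the germinal center type, in 4 libraries. All cells came from a single-cell clone with doxycycline-inducible Cas9, expressed transduced Tbxa2r, the thromboxane A2 receptor, and had received the receptor agonist U46619 at 10 nM for 24 h. A control sgRNA (2 libraries) was compared with an sgRNA against GNA13 (2 libraries), the gene for Gα13, a G protein through which this receptor signals. The line was 1 clone and each genotype rests on 1 sgRNA, every library was from agonist-treated cells, and no unstimulated library was used here, so effects of genotype that need the agonist cannot be told apart from those that do not. The libraries were labelled only as duplicates, so their spread may be technical.

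Flippases keep phosphatidylserine and phosphatidylethanolamine in the inner leaflet, against the action of scramblases, which let lipids move freely between leaflets. Exposed phosphatidylserine marks dying cells for engulfment and appears on platelets during clotting and on activated lymphocytes. Most P4-ATPases leave the endoplasmic reticulum only when bound to a CDC50 protein such as TMEM30A, and executioner caspases inactivate ATP11A by cleavage during apoptosis.

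The libraries held 29209544 to 31537955 mapped reads. The table gave log2 normalised reads per gene, and values of up to 200 reads came out as whole reads in 100% of cases within a tolerance of 0.1 reads, so read numbers are given beside log2 values. Markers of B cells summed to 2150 and 2210 RPM (reads scaled to the mapped total) for control against 1900 and 1980 for the other genotype, and those of germinal center B cells to 838 and 774 against 728 and 695. T and NK cell markers summed to at most 0.365 RPM, with CD3D, CD3E, CD2 and CD7 at 0. The 6 myeloid markers summed to 7.67 and 7.80 RPM for control against 0.929 and 0.842, with FCGR3A at 0, CD14 at no more than 2 reads and ITGAM at 125 and 145 reads against 3 and 4. The summed plasma cell markers were 689 and 653 against 530 and 505. Those of epithelial, endothelial and fibroblast cells summed to 5.37 and 5.23 against 3.82 and 4.08, with KRT8, KRT18 and CDH5 at 0. Of the 3 tested genes in this last list, 1 was higher and 1 lower at an adjusted p under 0.05 (limma). Their median log2 difference was 1.02, so the lower sum does not describe each of them. The part of these shifts in the flippase differences was not tested.

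GNA13 mRNA did not mark the knockout. Its log2 values were 12.46 and 12.45 for control against 13.10 and 13.11 for the libraries labelled GNA13-deficient, which differed by 0.65 ± 0.05 (SE, adjusted p = 0.00214, limma). Targeting of this gene was therefore not visible in its transcript level, which does not check the labels. Every direction given here rests on those labels.

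ATP11A, which moves phosphatidylserine and phosphatidylethanolamine at the plasma membrane, differed most. Its gene lies on GRCh37 at chr13:113344352-113541482 on the plus strand, with 30 exons in the transcript used here and a predicted product of 1134 residues. Its log2 values were 10.05 and 10.20 for control against 6.29 and 6.32 for the libraries labelled GNA13-deficient. These values correspond to 1040 and 1194 reads in control against 76 and 74 reads. The genotypes did not overlap, and the gap of 3.73 between them compared with 0.15 between the control libraries and 0.03 between the others. The mean was lower by 14.1-fold, a log2 difference of -3.82 ± 0.11 (SE from the fit across all genes, n = 2 per genotype). With any single library left out the difference lay between -3.90 and -3.75. The ratio of summed reads was 14.2, scaled as in the deposited values, as are the later ratios of summed reads. Its 95% exact interval of 12.0 to 16.9 covers counting error only.

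Among all 16945 genes tested, log2 differences ran from -2.03 at the 5th percentile to 1.01 at the 95th percentile around a median of -0.02, and ATP11A ranked 161 from the lowest. Its mean over the 4 libraries was at percentile 50.5 of the genes tested.

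**Figure D1:**
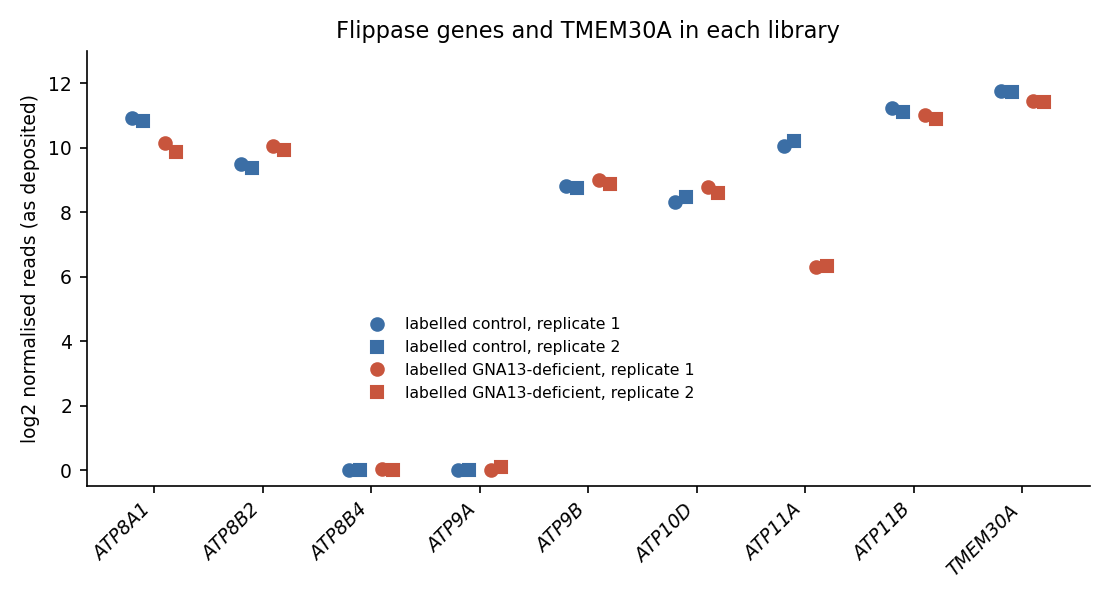
Log2 normalised reads of the 9 members in each library, with control libraries in blue, libraries labelled GNA13-deficient in red, circles for replicate 1 and squares for replicate 2. ATP11A drops from 10.05 and 10.20 to 6.29 and 6.32, while the next largest shift is that of ATP8A1, and ATP8B4 and ATP9A sit at or near 0, with 1 read each in 1 library.

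The sequence around the annotated start of ATP11A and of the members with the next largest decrease and the largest increase, ATP8A1 and ATP8B2, is shown because these genes moved in opposite directions. Each runs 5′ to 3′ on the coding strand from 250 bases before to 50 bases after the start, taken from RefSeq on GRCh38.p14, and capitals mark the GC box GGGCGG on either strand, overlapping matches included. The positions are chr13:112689788-112690087 (plus strand) for ATP11A, chr4:42657056-42657355 (minus strand) for ATP8A1, and chr1:154328548-154328847 (plus strand) for ATP8B2, the more CpG-rich of its 2 listed starts.
ATP11A: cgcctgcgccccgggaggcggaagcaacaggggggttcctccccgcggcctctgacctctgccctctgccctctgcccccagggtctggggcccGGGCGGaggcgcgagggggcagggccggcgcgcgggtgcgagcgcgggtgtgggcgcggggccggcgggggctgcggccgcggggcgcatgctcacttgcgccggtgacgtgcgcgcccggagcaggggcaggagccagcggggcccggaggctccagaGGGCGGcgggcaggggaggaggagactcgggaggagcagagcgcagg
ATP8A1: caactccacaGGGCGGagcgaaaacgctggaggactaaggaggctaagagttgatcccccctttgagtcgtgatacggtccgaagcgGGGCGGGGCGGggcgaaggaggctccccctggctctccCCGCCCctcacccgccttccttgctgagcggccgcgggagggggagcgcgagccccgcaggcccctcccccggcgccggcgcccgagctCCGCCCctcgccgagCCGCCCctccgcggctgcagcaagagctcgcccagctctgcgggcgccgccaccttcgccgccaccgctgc
ATP8B2: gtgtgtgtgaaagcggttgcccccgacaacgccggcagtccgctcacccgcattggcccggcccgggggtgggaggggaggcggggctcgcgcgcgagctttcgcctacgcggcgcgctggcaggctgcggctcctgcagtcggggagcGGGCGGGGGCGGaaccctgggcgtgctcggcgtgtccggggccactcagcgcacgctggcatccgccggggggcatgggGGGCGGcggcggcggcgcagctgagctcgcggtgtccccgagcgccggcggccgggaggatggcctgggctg
The ATP11A window held 2 GC boxes and 37 CpG dinucleotides at 80.3% G and C. The ATP8A1 window held 6 GC boxes and 36 CpG at 74.7%, and the ATP8B2 window 3 GC boxes and 43 CpG at 78.3%. All 3 windows were richer in CpG than the median of 14 over 35116 RefSeq promoters of this length, of which 45% held at least 1 GC box, and the median G and C content of those promoters was 58.7%. None of the 3 windows held the E-box CACGTG (7.3% of all promoters), the forkhead motif GTAAACA (3.4%) or TATAAA (11.5%) on either strand, and CCAAT (34.6%) occurred 1 time, in the ATP8B2 window. The start of ATP9A, a gene with almost no reads, was richer still with 65 CpG, and that of ATP8B4, also with almost no reads, held 2 CpG and no GC box. The ATP8B2 start that is not shown also held 2 CpG and no GC box, at 55.7% G and C. The CpG content of the ATP8B2 window therefore depends on the start chosen.

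ATP8A1 and ATP11B are further phosphatidylserine flippases. ATP8A1, which acts on recycling endosomes and the plasma membrane (GRCh37 chr4:42410390-42659138, minus strand), had log2 values of 10.91 and 10.81 in the control libraries against 10.13 and 9.87. Its reads numbered 1892 and 1826 against 1095 and 869. The genotypes did not overlap, with a gap of 0.68, and the log2 difference of -0.86 ± 0.11 (SE) corresponds to a 1.81-fold lower mean. ATP11B, a flippase of endosomes and the trans-Golgi network, had log2 values of 11.24 and 11.10 against 11.00 and 10.88. Its difference of -0.23 ± 0.08 (SE) left a gap of 0.10 between genotypes, smaller than the 0.14 between the control libraries. The difference was -0.26 after quantile normalisation and -0.02 after centring each library on its median.

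TMEM30A, also called CDC50A, was the most abundant member (GRCh37 chr6:75962640-75994664, minus strand). Its log2 values were 11.75 and 11.73 for control against 11.46 and 11.43. All control values were above the others, and the log2 difference was -0.30 ± 0.05 (SE), a 1.23-fold lower mean. After median centring, which moved the median of all genes from -0.02 to 0.18, the TMEM30A difference was -0.09, below the shifted median.

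ATP8B2, a phosphatidylcholine flippase of the plasma membrane (GRCh37 chr1:154298001-154323780, plus strand), was the member with the largest increase. Its log2 values were 9.48 and 9.38 for control against 10.04 and 9.94. Its reads numbered 703 and 675 against 1024 and 910, without overlap. The difference was 0.56 ± 0.08 (SE), a 1.47-fold higher mean, and leaving out any single library kept it between 0.50 and 0.61.

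ATP10D, which translocates glucosylceramide, had log2 values of 8.31 and 8.46 against 8.78 and 8.58. The difference of 0.30 ± 0.12 (SE) left a gap of 0.12, less than the 0.19 between the libraries labelled GNA13-deficient. ATP9B, a protein of the trans-Golgi network that does not require a CDC50 subunit, had log2 values of 8.80 and 8.74 against 8.98 and 8.86. Its difference of 0.15 ± 0.09 (SE) came with a gap of 0.06, less than the 0.12 between the libraries labelled GNA13-deficient. For both genes the gap on the deposited scale was within the spread of duplicates, but the difference depended on the scaling. It was 0.44 for ATP10D and 0.26 for ATP9B after quantile normalisation, and 0.50 and 0.36 after median centring, where the median of all genes was 0.07 and 0.18.

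ATP8B4 and ATP9A, the endosomal relative of ATP9B, were not detectable at this depth. ATP8B4 had 1 read in replicate 1 labelled GNA13-deficient and ATP9A 1 read in replicate 2, and both were listed at 0 in the remaining libraries. In control replicate 2 a listed 0 can stand for 0 or 1 read. A count of 0 allows up to 3 reads in a library, which is 0.0951 to 0.103 RPM, and neither gene entered the fit.

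Of the 9 members, 7 were tested, and 4 of these had an adjusted p under 0.05 in the fit over all genes, 1 higher (ATP8B2) and 3 lower (ATP8A1, ATP11A and TMEM30A). In the same fit 29.7% of all genes tested were called, 13.1% as higher and 16.6% as lower. The tested members lay above the median level of those genes, at percentiles 50.5 to 87.8. A fit of only the 8473 genes at or above that median called 4083 genes and 5 members, ATP11B added. On the deposited scale all 7 tested members had genotypes that did not overlap, as did 65.3% of all genes tested. The levels per length given below are scaled to total mapped reads instead. On that scale ATP9B overlapped, at 2.04 and 1.87 for control against 2.22 and 1.98. The selection of the members used this contrast, so nothing is read from these counts. Median centring called 5 members, without TMEM30A but with ATP9B and ATP10D beside ATP8A1, ATP8B2 and ATP11A. Quantile normalisation added ATP10D to the 4, and without a variance trend TMEM30A was not called. Without the expression filter, ATP11A and TMEM30A were the members called.

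**Figure D2:**
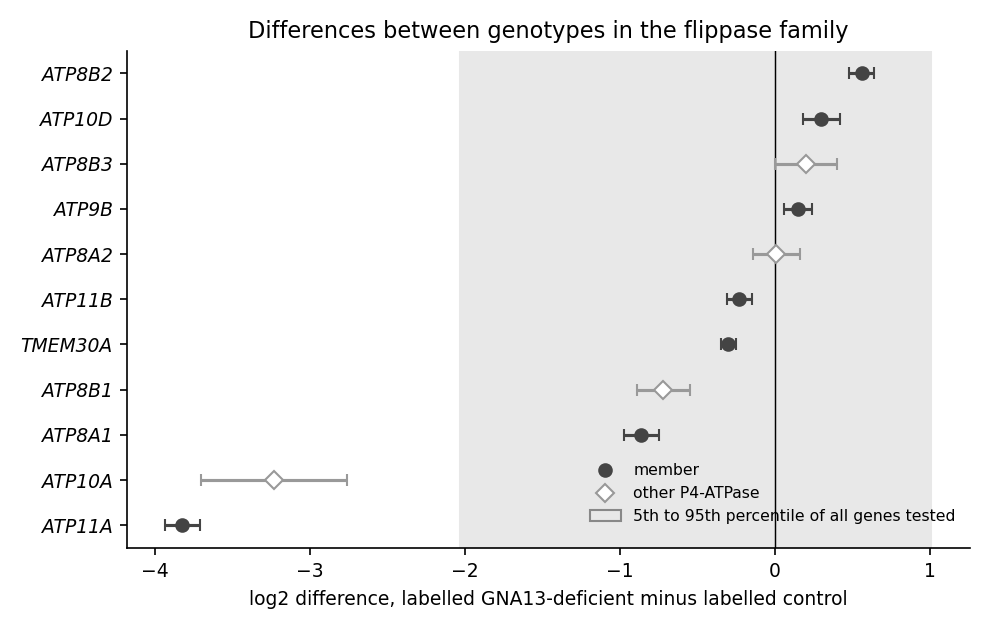
Log2 difference between genotypes (labelled GNA13-deficient minus labelled control) for the 7 tested members (filled circles) and 4 of the tested other P4-ATPases (open diamonds), with bars for the SE of the fit (n = 2 per genotype). The grey band runs from -2.03 to 1.01, the 5th to 95th percentile of all genes tested, and ATP11A at -3.82 and ATP10A at -3.23 lie outside it.

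Of the 6 measured P4-ATPases outside the set, 5 were tested. By limma 2 were lower and 3 not called, and 0 were higher (0 at an unadjusted p under 0.05 and 0 with voom weights). Their median difference was 0.01, beside -0.02 for all genes tested. ATP8A2, the relative of ATP8A1 that is best known from neurons, had log2 values of 8.45 and 8.42 against 8.63 and 8.26, a difference of 0.01 ± 0.15 (SE, adjusted p = 0.964, limma).

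ATP8B1, mutated in inherited cholestasis, fell by 0.72 ± 0.17 (SE, adjusted p = 0.0333, limma), with 140 and 161 reads in control against 94 and 80. That call was lost without the expression filter, after quantile normalisation (-0.33) and after median centring (-0.51). ATP10A, a phosphatidylcholine flippase, had few reads, 13 and 15 in control against 2 and 1. Its fitted log2 difference was -3.23 ± 0.47 (SE, adjusted p = 0.00892, limma), and summed reads gave a ratio of 8.89 with a 95% exact interval of 2.75 to 45.7. ATP8B3 had 64 and 63 reads against 71 and 68 (adjusted p = 0.502, limma). ATP10B had 2 reads, both in replicate 1 labelled GNA13-deficient, and was not tested. No pair of P4-ATPases was near-identical in coding sequence, with a highest identity to the closest relative of 73.1% for ATP9A and ATP9B.

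Per length of the longest annotated transcript, the members spanned a wide range. In control libraries, mean levels in reads per kilobase of transcript scaled to library size (RPKM) were 24.2 for TMEM30A, 10.4 for ATP11B, 7.42 for ATP8A1, 4.04 for ATP11A, 3.81 for ATP8B2, 1.96 for ATP9B and 1.65 for ATP10D. The ranges of ATP11A and ATP8B2 overlapped, so their order was not resolved. With the GNA13 sgRNA, as labelled, levels were 19.0 for TMEM30A, 8.56 for ATP11B, 5.41 for ATP8B2, 3.97 for ATP8A1, 2.10 for ATP9B, 1.96 for ATP10D and 0.276 for ATP11A. ATP11A moved from position 5 to position 11 of the family with TMEM30A, and ATP8B2 and ATP8A1 exchanged order.

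ATP11A made up 8.74% and 10.1% of the summed P4-ATPase level in the control libraries against 0.727% and 0.822%. The share of ATP8A1 was 17.5% and 17.0% against 11.5% and 10.6%, and that of ATP8B2 8.99% and 8.71% against 14.9% and 15.4%. The summed level was 44.8 and 41.1 RPKM in control against 38.1 and 33.4. Without ATP11A the sums were 40.9 and 37 against 37.9 and 33.1, so that the genotypes overlapped. TMEM30A amounted to 0.554 and 0.571 of the summed P4-ATPase level for control against 0.511 and 0.554. These shares depend on the transcript length assumed, and levels in bulk RNA do not separate fewer expressing cells from less RNA per cell.

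**Figure D3:**
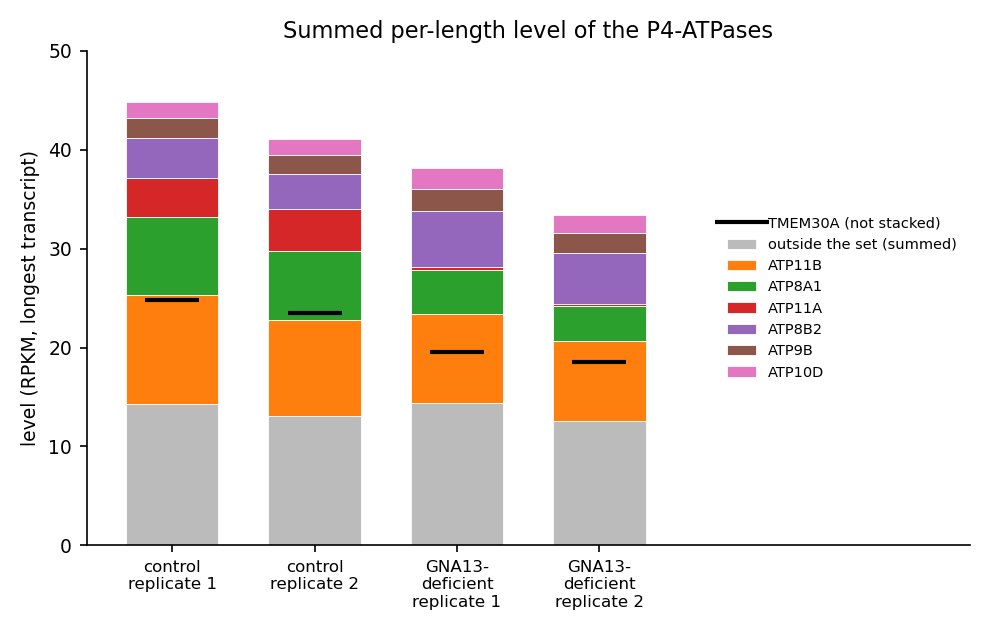
Stacked levels of the P4-ATPases in each library, with those outside the set joined in 1 grey layer, in RPKM over the longest annotated transcript, with the level of TMEM30A as a black line. The ATP11A layer shrinks from 3.92 and 4.17 RPKM in control to 0.278 and 0.274 RPKM, and the ATP8B2 layer is 4.03 and 3.58 against 5.69 and 5.13 RPKM.

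The genes whose values across the 4 libraries lay closest to those of ATP11A were MLC1, CD9, CASP4, DAPL1 and LOC84740, by Euclidean distance of centred log2 values among 8472 genes of at least median level. Distances were 0.07, 0.12, 0.12, 0.16 and 0.20, and the differences between genotypes ran from -3.86 for MLC1 to -3.72 for CASP4. With 4 libraries in 2 genotypes, this distance mainly compares the size of the difference between genotypes.

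The genes within 500 kb of ATP11A, chosen after values had been seen, gave 3 called of 7 tested, 2 of them higher and 1 lower, where 29.7% of all genes tested were called. MCF2L, which encodes a guanine nucleotide exchange factor and whose start lies 204.3 kb downstream, was lower, with log2 values of 3.73 and 2.78 against 1.04 and 0, a fitted difference of -2.74 ± 0.57 (SE, adjusted p = 0.0248, limma) and a ratio of summed reads of 9.53 (95% exact interval 2.31 to 84.1). TUBGCP3, on the other side of ATP11A at -101.8 kb, rose by 0.28 ± 0.07 (SE, adjusted p = 0.0446, limma), and PROZ rose from a very low level, with log2 values of 0.03 and 0.98 against 2.85 and 2.91 (adjusted p = 0.0209, limma). CUL4A, PCID2 and LAMP1 lay between -0.20 and 0.13, GRTP1 was at 0.60, and none of these 4 was called by limma. Without the expression filter none of the calls on MCF2L, TUBGCP3 and PROZ was kept, and a pseudocount of 10 reduced the MCF2L and PROZ differences to -0.85 and 0.60. The calls on MCF2L and TUBGCP3 were also lost without a variance trend, that on TUBGCP3 after quantile normalisation and that on PROZ with voom weights.

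**Figure D4:**
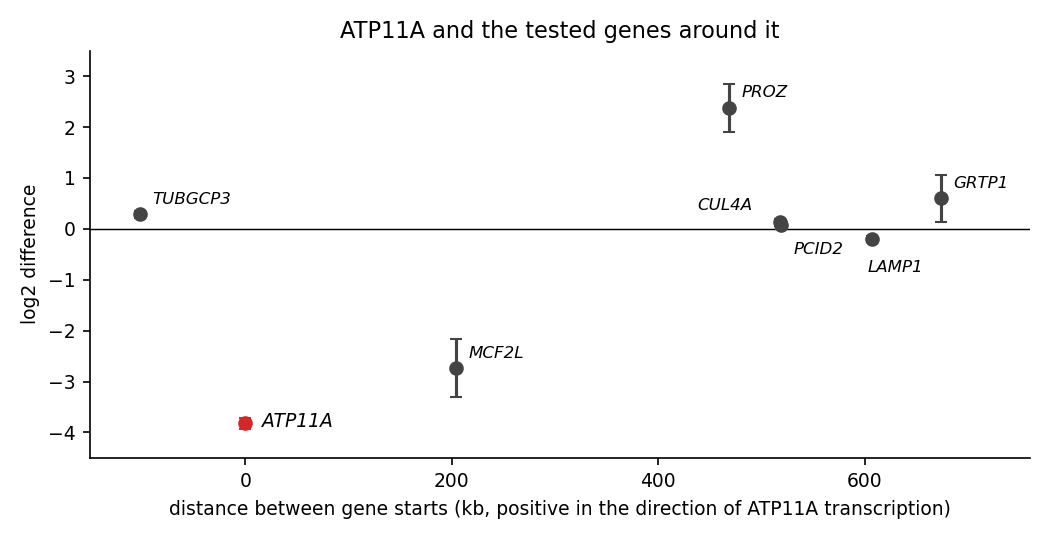
Log2 difference between genotypes for ATP11A (red) and the 7 tested genes around it (dark grey), against the distance between gene starts in kb, with bars for the SE of the fit (n = 2 per genotype). MCF2L at 204.3 kb is at -2.74 and PROZ at 468.6 kb at 2.38, both with few reads, while CUL4A, PCID2 and LAMP1 lie near 0.

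Across 12 lists of related genes, 88 genes were measured and 70 tested, of which 21 were called, 6 higher and 15 lower. This share of 30% compares with 29.7% of all genes tested. Of all genes tested, 13.1% were called higher and 16.6% lower, with a median difference of -0.02. The lists were written with results of these data known, so their counts are a description. Of these 21 genes, 6 were still called without the expression filter (ABCA7, ANO7, CHKA, LPCAT3, OSBPL10 and PISD). Without a variance trend 9 were lost, among them ABCA1, ABCG1, ANO9, BSG, ETNK1, NPTN, PI4KA and SNX3. Median centring lost 5, namely ABCA7, ATP8B1, ETNK1, NPTN and SNX3. The other CDC50 subunits gave no test, as TMEM30B was at 0 in every library and TMEM30C had 3 reads in control replicate 2 only.

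Among plasma membrane scramblases and their partners, 1 of 7 tested genes rose and 3 fell, with a median difference of -0.21. ANO7, an anoctamin, had 16 and 18 reads in control and 0 in both other libraries, at least 5.39-fold lower against a floor of 3 reads per library (adjusted p = 0.00268, limma). ANO9, a further anoctamin, fell by 1.19 ± 0.26 (SE, adjusted p = 0.0277, limma). BSG, which encodes basigin, a partner of the caspase-activated scramblase XKR8, rose by 0.41 ± 0.10 (SE, adjusted p = 0.0377, limma), a call lost without the filter, after quantile normalisation (0.26) and without a variance trend. NPTN, a second XKR8 partner that falls outside the naming rule, fell by 0.21 (adjusted p = 0.0473, limma). After median centring it was at -0.01, and its call was also lost without the filter, without a variance trend, with a pseudocount of 1 and with voom weights. XKR8 itself had a difference of -0.31 and ANO6, the calcium-activated scramblase, of 0.07, and neither was called.

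In the phospholipid scramblase family, 0 of 2 tested genes were called by limma (0 at an unadjusted p under 0.05 and 0 with voom weights). Of the intracellular scramblases, 1 of 4 was called, ATG9B, an autophagy scramblase with 14 and 13 reads against 2 and 3 (adjusted p = 0.0148, limma) and a ratio of summed reads of 5.14 (95% exact interval 1.95 to 17.1). Executioner caspases gave 0 called of 3 in limma (2 higher at an unadjusted p under 0.05, and 1 higher with voom weights), with a median of 0.20.

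The ABC floppases and lipid exporters, most of which move lipids outward, had 4 of 8 tested genes lower by limma, with a median of -0.42. ABCA4 counted among these 8 with only 1 and 0 reads in control against 0 and 1. Over all genes tested, 16.6% were lower by limma, with a median of -0.02. Of the same 8, 0 were higher by limma, at an unadjusted p under 0.05 or with voom weights. ABCG1 fell by 1.56 ± 0.25 (SE, adjusted p = 0.0122, limma), with 233 and 331 reads against 77 and 104. ABCA1 fell by 1.38 ± 0.26 (SE, adjusted p = 0.0183, limma). Both export cholesterol and phospholipid to lipoproteins, and both calls were lost without the filter and without a variance trend. Without the filter 1 of the 4 calls in this list was kept, that of ABCA7. ABCB4, a phosphatidylcholine floppase of the liver, fell by 0.69 (adjusted p = 0.0181, limma), and ABCA7, named after its values were seen, fell by 0.49 (adjusted p = 0.0126, limma).

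Of 6 tested genes of phosphatidylserine and phosphatidylethanolamine synthesis, 2 were lower and 0 higher by limma. At an unadjusted p under 0.05, 3 were lower and 1 higher, and voom weights called 2 lower and 1 higher. They were PISD, the mitochondrial phosphatidylserine decarboxylase, which fell by 0.53 (adjusted p = 0.00823, limma), and ETNK1, an ethanolamine kinase, which fell by 0.34 (adjusted p = 0.0228, limma). Of 8 tested genes of phosphatidylcholine synthesis, the choline kinase CHKA fell by 0.55 (adjusted p = 0.00422, limma) and LPCAT3, which remodels acyl chains, rose by 0.51 (adjusted p = 0.00476, limma). The remaining 6 were not called.

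Of 5 tested genes of phosphatidylserine exchange at membrane contacts, OSBPL10, an oxysterol-binding protein relative, fell by 1.09 ± 0.06 (SE, adjusted p = 0.00108, limma), with 3087 and 3210 reads against 1405 and 1411. PI4KA, the kinase that supplies phosphatidylinositol 4-phosphate at the plasma membrane, rose by 0.33 (adjusted p = 0.0279, limma). Of the 5 ATP9A partners on endosomes, SNX3, a sorting nexin, fell by 0.58 (adjusted p = 0.0147, limma). This only call of its list was lost without the filter, after median centring (-0.38) and without a variance trend.

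Of 17 tested other P-type ATPases, most of which pump ions, 3 were higher and 0 lower by limma, with a median of 0.06. At an unadjusted p under 0.05, 7 were higher and 1 lower, and voom weights called 7 higher and 0 lower. ATP2A3, a calcium pump of the endoplasmic reticulum, rose by 0.58 ± 0.08 (SE, adjusted p = 0.00745, limma), with both libraries labelled GNA13-deficient above both control libraries.

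**Figure D5:**
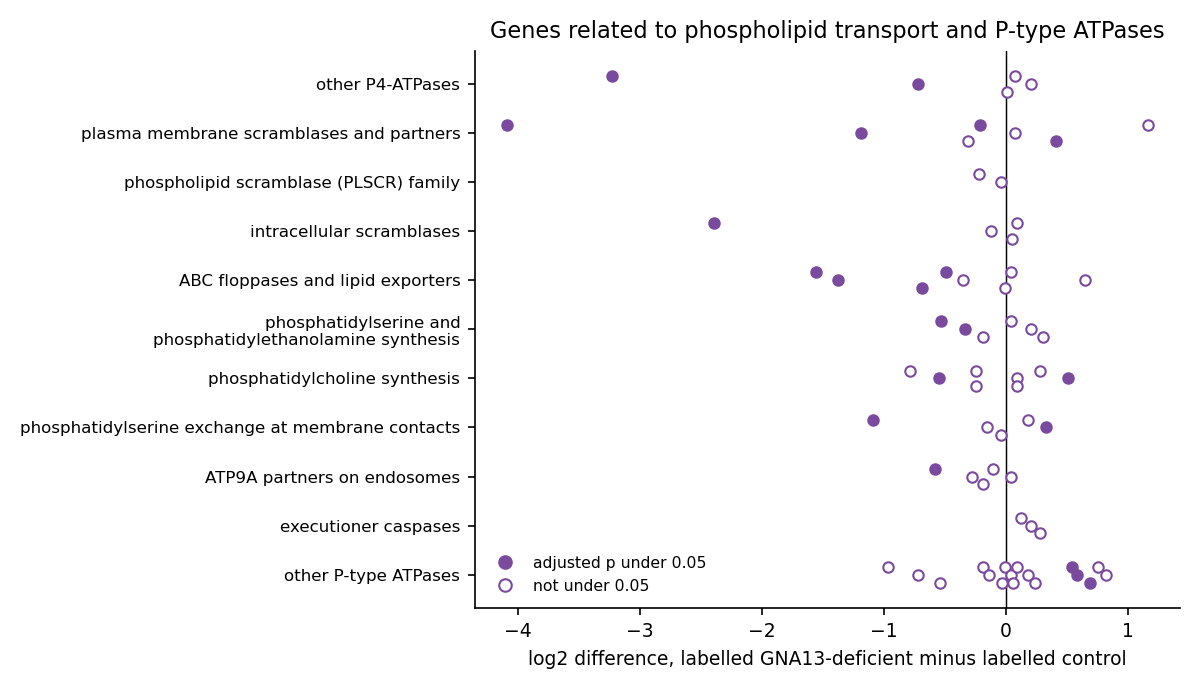
Log2 difference between genotypes for the tested genes of each related list, 1 point per gene, filled where the adjusted p was under 0.05. The 4 filled points of the ABC floppases and lipid exporters lie from -1.56 to -0.49, and the 3 filled points of the other P-type ATPases lie above 0.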

How the data were processed

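RNA from 4 libraries (2 per genotype) was sequenced as paired ends. The authors mapped them with STAR against hg19, HTSeq is named in the submitters' processing notes, and they deposited 1 table of log2 normalised reads per gene with a row of total mapped reads. The annotation, the strand setting, the normalisation method and tool versions are not given in the sources used here. No column was left unmapped.

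Of 25066 genes, the 16945 with values over 0 in 2 or more libraries were fitted in R 4.3.3 with limma 3.58.1 (lmFit, eBayes with trend) on the log2 values as deposited, with 2 residual degrees of freedom, with Benjamini-Hochberg adjustment of p over all genes tested (threshold 0.05). Scripts were tested on simulated data. Differences are the mean of the libraries labelled GNA13-deficient minus the mean of control. Because the deposited log2 values stop at 0, fold changes of genes with few reads understate or distort the change. Whole reads were recovered from the values and divided by the longest transcript of GENCODE 44 (lifted to GRCh37) and by total mapped reads to give levels. The main fit used no count model, since the unit of the deposited table is a log2 value. In an alternative, limma was run with voom weights on the recovered reads, with library sizes scaled by a trimmed mean of log ratios.

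The members and the gene lists were chosen with earlier results of these data known. The genes named were all members, detected other P4-ATPases, GNA13, the 5 nearest profiles to ATP11A, and in each list up to 3 called genes with the largest differences and no overlap. Some genes that this rule names are not reported here. Python 3.11 with numpy 2.4.6, scipy 1.17.1, Biopython 1.88 and matplotlib 3.10.9 was used for the rest. Alternatives changed the filter, a pseudocount of 1 or 10, the scaling (quantile, median centring), the variance model, the replicate block, the transcript length and the libraries included.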

Additional observations from a re-analysis of the deposited data

How the results depend on the processing

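All tested members kept their direction under every alternative run. Changing the filter, the replicate block or the variance trend leaves a gene's difference as it is, so those alternatives could not reverse a direction. After median centring ATP11B was at -0.02, close to no difference. The number of genes called was 5037, and it was 1999 without a filter and 2718 without a variance trend. The number of members called was 4, and 2 without a filter (ATP11A and TMEM30A). In the related lists, 21 genes were called, but 6 without a filter, 13 without a variance trend and 32 after median centring. Median centring raised the share of calls that were higher from 44% to 69.1%. With any 1 library left out, the counts of genes, members and list genes called ranged from 0 to 0, where limma had 1 residual degree of freedom and the lone library was assumed to vary like the other group, while 5257 to 5600 genes and 4 to 5 members had an unadjusted p under 0.05, so these counts say nothing of stability. The ATP8A2 difference of 0.01 then ranged from -0.18 to 0.20, with -0.003 without control replicate 2. The mean share of ATP11A in the summed P4-ATPase level was 9.44% in control and 0.775% in the libraries labelled GNA13-deficient. It was 13.3% and 1.24% with the median transcript length, and 11.5% and 0.986% with no length correction. The cause of these shifts was not tested, except that the filter changes the genes tested. No source pairs the libraries by number, so what a shared replicate number stands for is not known. With it as a replicate block, 6616 genes and 5 members were called, ATP11B added. Deviations of the replicate 1 libraries from their genotype means correlated at 0.453 over 8473 genes. With 2 libraries per genotype, the replicate 2 libraries give the same value by construction. Whether same-numbered libraries shared a preparation was not tested. With 2 libraries per genotype, and few reads for ATP10A, ANO7 and ATG9B, small differences could not be resolved.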
